A study of Oryza sativa with 15 samples.

Results

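In rice shoots moved to 40 °C, 42 genes had a mean transcript level of at most 25% of the wet control after 30 min of heat and of 0.67 to 1.5 times the wet control after 60 min. They were chosen from 24073 genes in the table by these group means, in CPM, which expresses each count relative to its library's size, here adjusted by TMM scaling factors, with 0.1 CPM added. A wet control mean of at least 5 CPM was also required, and 12887 genes met that. Of these, 507 were at or below 25% of the wet control at 30 min. Within the 507, the 42 were back near the control level at 60 min, 462 were still below 0.67 times the control, and 3 were above 1.5 times it. The 3 loci that the rule leaves out are not analysed here.

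The RNA came from entire shoots of Nipponbare, a japonica rice cultivar with no transgene or mutation named in the labels. Seeds were germinated for 3 days, planted 7 to a pot and grown for 10 days with 12 h of light at 30 °C by day, 27 °C by night and 90% humidity. The wet control was kept at 3 g of water per g of soil, mild drought at 1.5 g/g and severe drought at 1.25 g/g. The heat groups were wet control pots moved to 40 °C for 30 or 60 min. Each of the 5 groups had 3 libraries, and all were collected 6 h after dawn. The labels do not say that replicates came from separate pots or plants, so p-values measure only the spread between these libraries, which may be technical. In whole shoots, fewer cells of a type and less RNA per cell cannot be told apart.

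Plants meet sudden heat with a fast change in transcription: heat shock factors switch on chaperone genes while many growth genes lose transcript. How quickly a transcript can fall depends on how quickly its existing copies are degraded, so early losses are often seen in short-lived messages of regulators. Gibberellin and brassinosteroid promote shoot elongation and cytokinin promotes cell division, and the response to each depends on its synthesis, breakdown and perception.

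Total counts were 67857233 to 77969214 per library at 30 min and 49479059 to 76678737 in the other 4 groups. The TMM factors were 0.622 to 0.706 at 30 min and 0.999 to 1.318 in the other groups, so the level assigned at 30 min depends on the scaling. Scaling by total counts alone moved the median over all genes of the log2 ratio of 30 min to wet control by -0.88. On that scale the same 42 genes stood at 3.37% to 13.8% of the control at 30 min and 11 of them stood under 0.67 times the control at 60 min. The shoot label was checked with GLK1, a factor of chloroplast development in green tissue, which was at 270 ± 79.9 CPM in the wet control (mean ± SD, n = 3). LSI1, a silicon channel best known from roots, was at 16.2 ± 4.07 CPM there.

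By the values that chose them, the 42 genes ranged from 6.03% to 24.96% of the wet control at 30 min, with a median of 20.9%. At 60 min they ranged from 67.6% to 139.5% of it, with a median of 80.8%, and 33 of the 42 had a 60 min mean below the control mean. The rise from 30 to 60 min was 2.84-fold to 13.5-fold, with a median of 4.13-fold. Their wet control means ran from 4.98 to 311 CPM with a median of 13.2 CPM, and 26 of them were under 20 CPM. All 42 passed the filter on low counts, and their counts in single 30 min libraries were 18 to 3848. By the chromosome number in the identifiers, 9 were on chromosome 1 (0.309% of the genes tested there) and 5 on chromosome 10 (0.482%). None of the 1720 genes tested on chromosome 5 was among them. The others were on 9 further chromosomes, at 0.0887% to 0.275% of the genes tested.

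**Figure D1:**
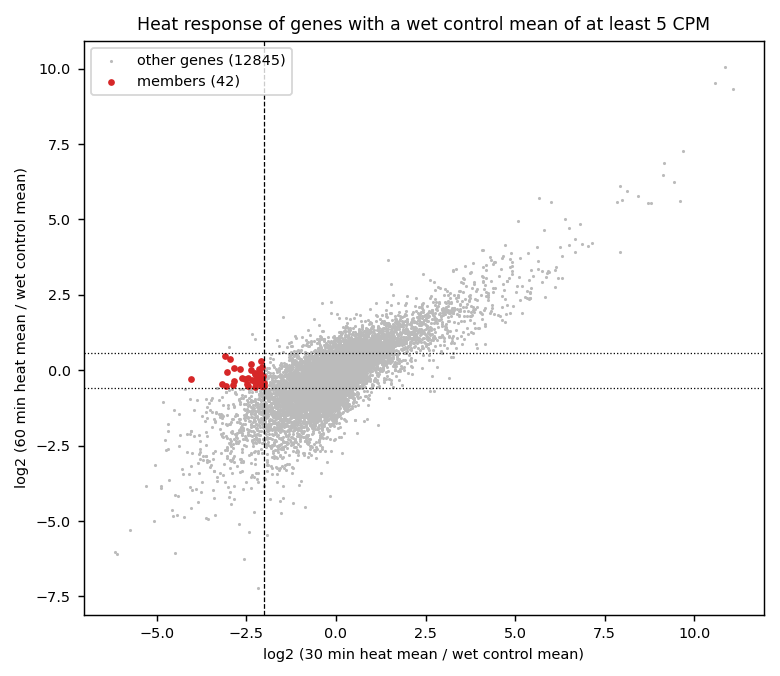
Log2 ratio of the 60 min mean to the wet control mean (vertical) against the log2 ratio of the 30 min mean to the wet control mean (horizontal), 1 point per gene with a wet control mean of at least 5 CPM. Dashed and dotted lines are the limits at 30 and 60 min, and the 42 chosen genes (red) lie between the dotted lines at 6.03% to 24.96% of the control at 30 min.

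The limits cut through a continuous range of values. At the 30 min limit, LOC_Os01g49310 (24.96%) and LOC_Os07g04930 (24.75%) were just inside, and LOC_Os03g25450 (25.12%) and LOC_Os03g27590 (25.48%) just outside. At the lower 60 min limit, LOC_Os03g56370 (67.59%) and LOC_Os12g36860 (69.79%) were inside, and LOC_Os03g39407 (66.86%) and LOC_Os05g04600 (65.92%) outside. At the upper one, LOC_Os06g39780 (139.5%) and CYP76M6 (128.9%) were inside, and the nearest genes outside were LOC_Os04g56910 (170.3%) and LOC_Os04g59200 (203.2%). At the limit on the wet control mean with 0.1 CPM added, LOC_Os12g36940 (5.08 CPM) and LOC_Os11g16470 (5.46 CPM) were inside, and LOC_Os12g09550 (4.90 CPM) and LOC_Os09g29520 (4.82 CPM) outside.

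Names could be checked against the reference for 7 of the 42, and the other 35 are given by locus with no role. Of these 7, 3 belong to hormone pathways: SLR1 and BRI1, which were in the lists of hormone genes, and CKX11. The other 4 are the transcription factor HOX4, the transporters MST3 and HAK5, and the cytochrome P450 CYP76M6. In 27 of the 42 genes every 30 min library lay below every wet control library, and in 15 the ranges overlapped. Over all 20462 genes tested, 25% had 30 min libraries all below the wet control, but the rule used these same libraries and nothing is read from the difference. In 40 of the 42 every 60 min library lay above every 30 min library, beside 23% of all genes, again by the libraries of the rule. LOC_Os10g17260 and LOC_Os12g36860 were the 2 in which these ranges overlapped.

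SLR1 (LOC_Os03g49990) encodes the DELLA protein, the repressor that gibberellin removes in order to act. It was at 67.7, 84.2 and 70.5 CPM in the wet control, 15.3, 17.0 and 18.4 CPM at 30 min and 65.7, 59.0 and 59.8 CPM at 60 min. The 30 min libraries lay together far below the control, and the 60 min libraries were all just under the lowest control library. SLR1 stood at 22.9% of the control at 30 min and 83% at 60 min.

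BRI1 (LOC_Os01g52050) encodes the receptor kinase that binds brassinosteroid at the cell surface. Its wet control libraries were at 35.1, 28.3 and 53.3 CPM, its 30 min libraries at 11.3, 8.09 and 8.10 CPM and its 60 min libraries at 42.6, 24.7 and 26.9 CPM. The 60 min libraries overlapped the control, and all 3 lay above those of 30 min.

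CKX11 (LOC_Os08g35860) encodes a cytokinin oxidase, an enzyme that breaks cytokinin down. It was at 42.8, 45.9 and 30.6 CPM in the wet control, 8.02, 8.87 and 8.33 CPM at 30 min and 34.7, 33.6 and 28.8 CPM at 60 min. The 30 min libraries were within 1 CPM of each other, and the 60 min libraries overlapped the lower part of the control range.

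HOX4 (LOC_Os09g29460), a homeodomain leucine zipper transcription factor, had the deepest loss of the 42. Its wet control libraries were at 28.9, 23.6 and 22.6 CPM and its 30 min libraries at 1.40, 1.55 and 1.30 CPM. At 60 min it was at 21.5, 25.1 and 14.4 CPM, which overlapped the control. The 30 min mean was 6.03% of the control and the 60 min mean was 13.5-fold above the 30 min mean.

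Among the genes without a checked name, LOC_Os07g04930 had wet control libraries at 63.0, 87.5 and 215 CPM, 30 min libraries at 14, 30.4 and 45.9 CPM and 60 min libraries at 91.5, 71.3 and 94.1 CPM. LOC_Os08g02110 was at 15.2, 8.04 and 3.88 CPM in the wet control, 1.26, 0.578 and 0.884 CPM at 30 min and 4.16, 7.19 and 8.58 CPM at 60 min. In both genes the 30 min libraries lay below all others of the heat series, while the control libraries differed from each other several-fold. LOC_Os06g40440 was at 44.4, 44.6 and 41.1 CPM in the wet control, 9.28, 12.2 and 10.3 CPM at 30 min and 41.0, 41.1 and 32.6 CPM at 60 min. Its control libraries were close together, and the highest 60 min library was level with the lowest of them.

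LOC_Os01g02940 was at 62.4 ± 7.69 CPM in the wet control, 11.3 ± 2.43 CPM at 30 min and 43.7 ± 8.27 CPM at 60 min (mean ± SD, n = 3). LOC_Os03g56370 was at 40.9 ± 10.9, 8.41 ± 2.60 and 27.6 ± 3.95 CPM in the same 3 groups. LOC_Os02g13510 was at 57.4 ± 44.4, 6.82 ± 0.484 and 40.4 ± 16.2 CPM, and LOC_Os03g03320 at 7.99 ± 5.89, 1.02 ± 0.418 and 6.18 ± 3.75 CPM. In these 4 genes every 30 min library was below every control library, by a wide margin in the first pair and next to a control SD of similar size to the mean in the other.

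**Figure D2:**
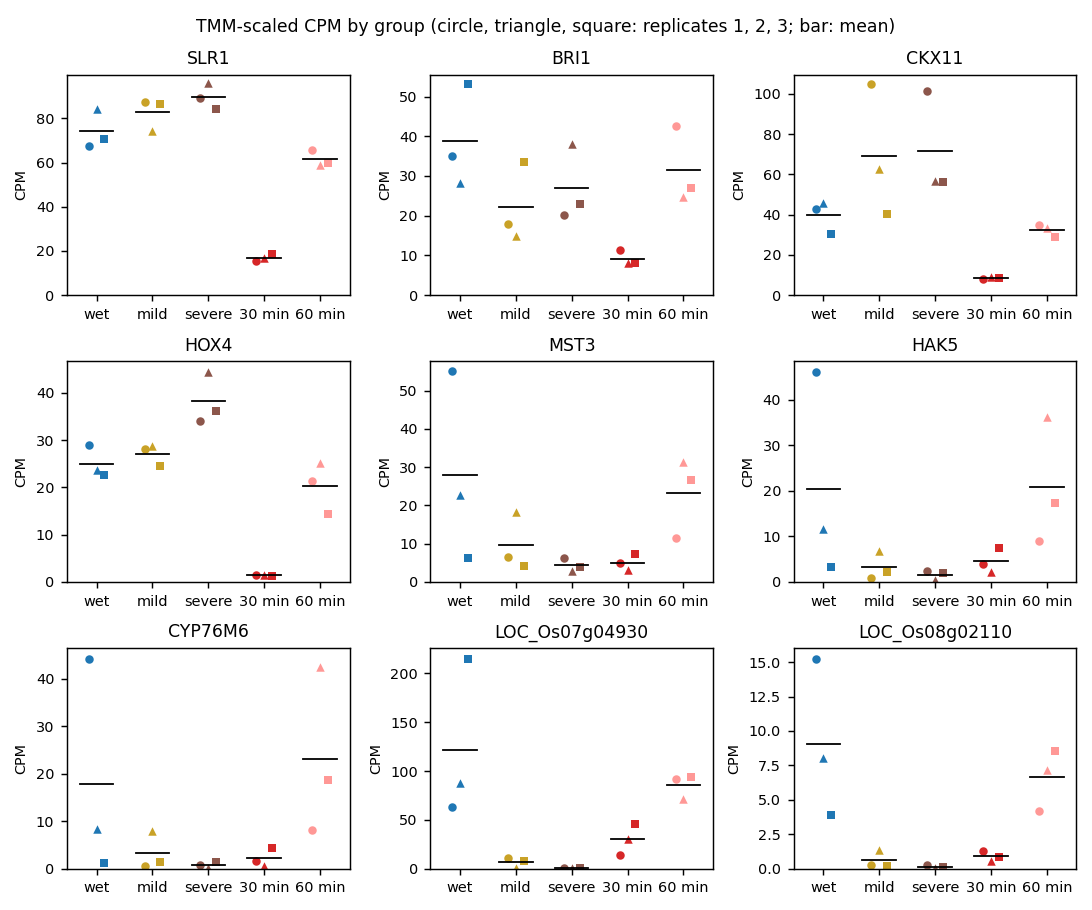
TMM-scaled CPM of 9 genes in each library of the 5 groups, on linear axes that start at 0. Circles, triangles and squares are replicates 1, 2 and 3 and bars are means of 3. SLR1 and HOX4 dip at 30 min, with tight control and 30 min groups. HOX4 spreads more at 60 min, from 14.4 to 25.1 CPM. MST3, HAK5 and CYP76M6 show 1 high wet control library, replicate 1, and 1 low one, replicate 3.

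How far the loss stood clear of the control spread differed among the 42. In the 27 genes with no overlap, the highest 30 min library was 6.84% to 97.4% of the lowest wet control library, with a median of 39.1%. In 3 of the 27 it was at most 25%. The highest wet control library was 1.08 to 6.51 times the lowest in these 27 genes (median 1.69), and 5.54 to 44.5 times the lowest in the 15 with overlap (median 13.3). Over all genes with a wet control mean of at least 5 CPM the median was 1.44. This split of the 42 uses the libraries of the rule and is a description.

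The 15 genes with overlap varied between libraries in 1 shared order. In all 15, wet control replicate 1 was the highest and replicate 3 the lowest, an order that 13.9% of the 12887 genes with at least 5 CPM had. In 14 of the 15, replicate 2 was the highest library of mild drought, beside 27% of the 12887 genes. In 14 it was the highest of 60 min, beside 37%. In 13 of the 15 the wet control order, mild drought replicate 2 and 60 min replicate 2 came together, beside 4.8% of the 12887 genes. In 12 of the 15, replicate 3 was the highest library of 30 min, beside 34.5% of the 12887 genes. The rule used the wet control, 30 min and 60 min libraries, and the split those of the wet control and 30 min. Nothing is therefore read from the shares that involve these libraries. In 5 of the 15 all 30 min libraries lay above wet control replicate 3, so the low 30 min mean there was low only against replicates 1 and 2.

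HAK5 (LOC_Os01g70490), a potassium uptake transporter, was at 46.1, 11.7 and 3.22 CPM in the wet control, 3.88, 2.25 and 7.49 CPM at 30 min and 8.98, 36.1 and 17.3 CPM at 60 min. MST3 (LOC_Os07g01560), a monosaccharide transporter, was at 55.1, 22.8 and 6.15 CPM, then 4.84, 3.03 and 7.17 CPM, then 11.6, 31.3 and 26.8 CPM in the same groups. CYP76M6 (LOC_Os02g36280), a P450 whose gene lies in a cluster for diterpenoid defence compounds, was at 44.2, 8.4 and 1.19 CPM in the wet control. Its 30 min libraries were at 1.56, 0.681 and 4.37 CPM and its 60 min libraries at 8.23, 42.5 and 18.6 CPM. In all 3 genes the control ran from above the 60 min libraries to within the 30 min libraries, so the direction of the dip rested on control replicates 1 and 2.

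LOC_Os02g40240, the gene of this kind with the most counts, was at 487, 359 and 87.8 CPM in the wet control, 54.0, 63.8 and 89.5 CPM at 30 min and 151, 297 and 245 CPM at 60 min. Its lowest control library was within 2 CPM of its highest 30 min library. LOC_Os06g39780, LOC_Os11g12340 and LOC_Os01g63180 were at 11.8%, 13.8% and 12.2% of the control at 30 min, with control means of 10.4 ± 12.1, 13.4 ± 13.99 and 8.27 ± 10.2 CPM (SD, n = 3). In each of these 3 the control SD exceeded the mean.

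PBZ1, a defence gene of the PR10 family that is not one of the 42, was looked at after the values were seen because LOC_Os12g36860 and LOC_Os12g36940 have locus numbers close to its own. PBZ1 was at 728, 167 and 35.4 CPM in the wet control, 219, 104 and 563.6 CPM at 30 min and 222, 920 and 436 CPM at 60 min. It was highest in wet control replicate 1, 30 min replicate 3 and 60 min replicate 2, the same libraries as most of the 15 genes. Its 30 min mean was 0.953 times that of the control, so it did not share their dip. The part of this library difference in the values of the 15 genes was not tested.

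**Figure D3:**
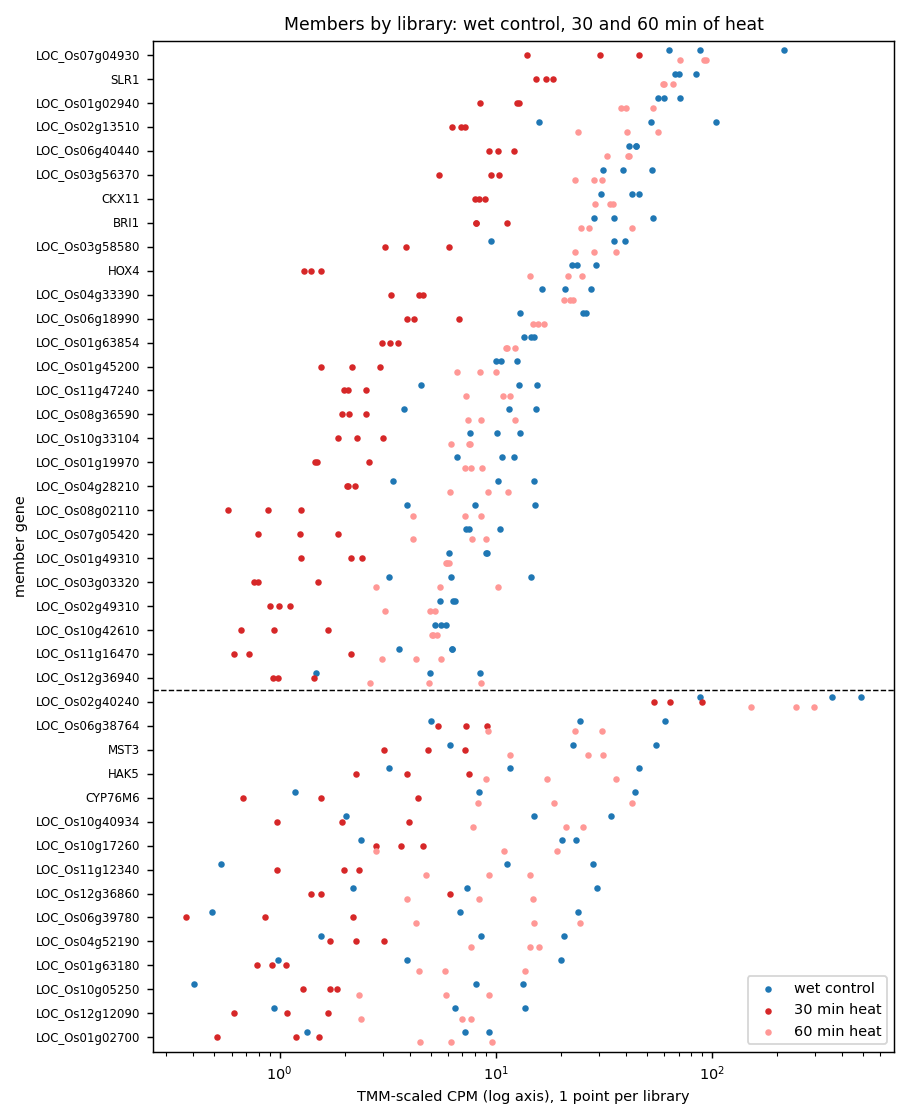
TMM-scaled CPM (horizontal, log axis) of the 42 genes in each wet control, 30 min and 60 min library, 1 point per library. Above the dashed line are the 27 genes in which every 30 min library was below every control library, and below it the 15 in which the ranges overlapped and the control libraries spread 5.54-fold to 44.5-fold.

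Membership depended on single libraries to a different degree in the 2 sets, a description, since the split uses the libraries of the rule. When each wet control, 30 min and 60 min library was left out in turn, 11 of the 42 genes met the rule every time, among them SLR1, CKX11 and HOX4, and all 11 were among the 27 without overlap. Wet control replicate 1 was the highest control library in all 15, so their loss without it was nearly fixed by the split. Without that library, 19 of the 27 still met the rule and none of the 15 did, and the rule then chose 27 genes in all. With 30 min replicate 3 left out it chose 66 genes. BRI1 was not among the 11.

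**Figure D4:**
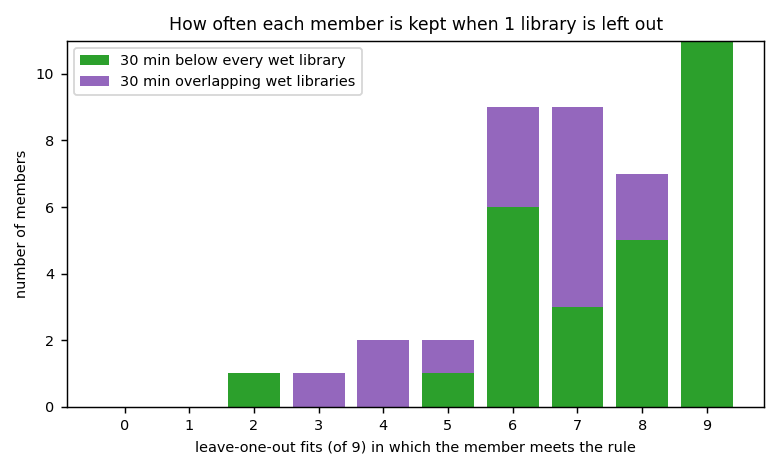
Number of the 42 genes (vertical) by how many of 9 fits with 1 library left out still chose them (horizontal). Green bars are the 27 genes with no overlap of 30 min and wet control libraries and purple bars the 15 with overlap. The 11 genes chosen in all 9 fits were all in the green set.

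The drought groups were not used by the rule, but comparisons with the wet control share its 3 libraries with the rule, so a high control value enters both. Of the 42 genes, 2 were lower in mild drought and none higher (edgeR quasi-likelihood test, adjusted p below 0.05), where 0.528% of all genes tested were lower and 0.909% higher. In severe drought the same 2 genes were lower and none higher, where 1.05% of all genes were lower and 1.64% higher. Among the 12887 genes with at least 5 CPM in the wet control, 0.675% were lower and 1.04% higher in mild, and 1.16% lower and 1.85% higher in severe drought. The median log2 fold change of the 42 was -0.36 in mild and -0.34 in severe drought, beside -0.002 and -0.02 over all genes tested. In each drought group 17 of the 42 had a fold change above 0 and 25 below 0.

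The 2 genes that fell were LOC_Os07g04930 and LOC_Os08g02110, for which the reference gave no name. LOC_Os07g04930 was at 11.1, 0.891 and 7.46 CPM in mild drought and 1.01, 0.462 and 0.808 CPM in severe drought, all below its lowest control library of 63.0 CPM. It fell by 4.24 ± 0.79 on the log2 scale in mild drought (SE, edgeR adjusted p = 0.023) and fell by 7.33 ± 0.92 in severe drought (edgeR adjusted p = 0.002). Its drought libraries were also all below its lowest 30 min library of 14 CPM.

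LOC_Os08g02110 was at 0.243, 1.38 and 0.175 CPM in mild drought and 0.275, 0.0289 and 0.118 CPM in severe drought, all below its lowest control library of 3.88 CPM. It fell by 3.89 ± 0.83 in mild drought (edgeR adjusted p = 0.041) and fell by 6.03 ± 0.95 in severe drought (edgeR adjusted p = 0.0053), on the log2 scale. Both genes lost the mild drought call when wet control replicate 3 or mild drought replicate 1 was left out, with edgeR adjusted p of 0.077 and 0.07 for LOC_Os07g04930 and of 0.056 and 0.19 for LOC_Os08g02110. LOC_Os08g02110 also lost it without wet control replicate 1 (edgeR adjusted p = 0.095) and with the replicate number as a block (edgeR adjusted p = 0.072). The severe drought calls held with each library left out. With only the 2 compared groups in the fit, both mild drought calls (edgeR adjusted p = 0.32 for each) and the severe drought call of LOC_Os08g02110 (edgeR adjusted p = 0.075) were lost. That fit called no gene at all in mild drought.

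The hormone genes did not pass the test in drought. SLR1 was at 87.5, 74.5 and 86.7 CPM in mild and 89.2, 95.8 and 84.4 CPM in severe drought, where every library was at or above the highest control library, a log2 fold change of 0.28 ± 0.12 (edgeR adjusted p = 0.24). CKX11 was at 105, 62.8 and 40.2 CPM in mild and 101, 56.8 and 56.4 CPM in severe drought, with a log2 fold change of 0.85 ± 0.31 in severe drought (edgeR adjusted p = 0.16). BRI1 was at 17.9, 14.9 and 33.6 CPM in mild and 20.1, 38.0 and 23.0 CPM in severe drought, with log2 fold changes of -0.81 ± 0.35 and -0.53 ± 0.35 (edgeR adjusted p = 0.20 and 0.44). SLR1 and CKX11 thus had no overlap with the control in severe drought, while BRI1 overlapped it.

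HOX4 was at 28.2, 28.8 and 24.5 CPM in mild and 34.1, 44.5 and 36.1 CPM in severe drought. Its severe drought libraries were above all those of the wet control and of mild drought. The log2 fold change in severe drought was 0.61 ± 0.19 against the control (edgeR adjusted p = 0.10), short of the threshold.

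Without a test, 6 of the 42 had every severe drought library above every control library, beside 10.9% of all genes, and 7 had every one below, beside 9.03%. The 6 were SLR1, CKX11, HOX4, LOC_Os06g40440, LOC_Os10g17260 and LOC_Os01g45200. In mild drought 2 genes were above, beside 10.2% of all genes, and 3 below, beside 9.42%. LOC_Os10g17260 was at 23.6, 20.3 and 2.37 CPM in the wet control, 61.6, 39.1 and 75.0 CPM in mild and 36.7, 114 and 41.0 CPM in severe drought. Its log2 fold change in severe drought was 2.05 ± 0.78 (edgeR adjusted p = 0.18).

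The genes with overlap and those without stood apart in severe drought, a description with no test, since control libraries define the split. The 15 with overlap had a median log2 fold change of -3.08 in severe drought, with 12 of 15 below 0, and of -1.37 in mild drought. The 27 without overlap had medians of 0.14 and 0.07, with 13 of 27 below 0 in severe drought. The transporters and the P450 were among the 15: the severe drought libraries of HAK5 were at 2.44, 0.462 and 1.90 CPM, those of MST3 at 6.21, 2.81 and 4.02 CPM and those of CYP76M6 at 0.753, 0.0577 and 1.46 CPM. Their log2 fold changes were -3.67 ± 1.04, -2.69 ± 0.75 and -4.57 ± 1.46 (edgeR adjusted p = 0.084, 0.079 and 0.12), so none of the 3 passed the test. The lowest group mean was that of severe drought in 11 of the 15 and that of 30 min in 25 of the 27. Without wet control replicate 3, the lowest control library of all 15, 6 of the 42 genes passed the test as lower in severe drought, where 1.06% of all genes did. Leaving that library out raises the control mean of the 15, so nothing is read from the added calls. With any other single library of the 2 groups left out, 2 of the 42 passed.

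**Figure D5:**
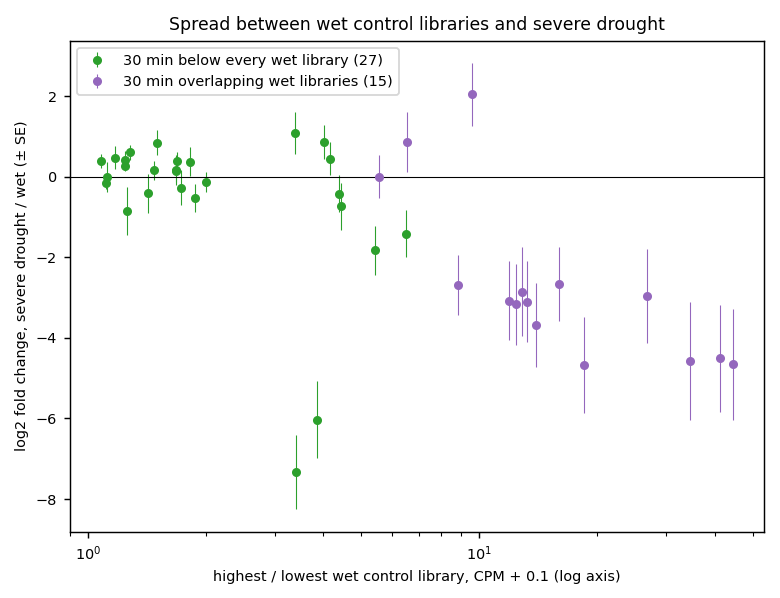
Log2 fold change of severe drought against the wet control (vertical, bars are SE) against the ratio of the highest to the lowest wet control library (horizontal, log axis), 1 point per gene. The 27 genes without overlap (green) have ratios up to 6.51 and a median fold change of 0.14, the 15 with overlap (purple) ratios of 5.54 to 44.5 and a median of -3.08, and the 2 lowest green points are LOC_Os07g04930 and LOC_Os08g02110.

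Severe against mild drought used no library of the rule. None of the 42 passed the edgeR test, where 0% of the 20462 genes did, and 3 of the 42 and 569 of all genes had an unadjusted p below 0.05. DESeq2 called 44 genes, of which 1 was among the 42. LOC_Os07g04930 had a log2 difference of -3.10 ± 0.79 and HOX4 one of 0.49 ± 0.19 (edgeR adjusted p = 1 for both). HOX4 was the 1 gene of the 42 with every severe drought library above every mild one, beside 2.42% of all genes, and none had every one below, beside 2.21%. The median of the 42 was -0.09, beside -0.02 over all genes. The 15 genes with overlap had a median of -1.62, with 14 of 15 below 0, and the 27 without had one of 0.03, with 12 of 27 below 0. The contrast between the sets was not tested. In 14 of the 15, replicate 2 was the highest mild drought library, so a high replicate 2 entered the mild drought mean there.

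Other genes of the pathways that SLR1 and BRI1 belong to were tested in the heat groups, where they had a checked name and passed the filter. Over 12 lists of growth, hormone, nutrient, clock and stress regulators, 100 genes beside SLR1 and BRI1 could be tested. At 30 min, 15 of them were higher and 22 lower than the wet control, where 19.3% of all genes were higher and 19.6% lower. The median log2 fold change of these lists together was -0.24, beside -0.14 over all genes. By total counts alone, 5 were higher and 62 lower, so the balance of directions rests on the scaling. At 60 min, 14 were higher and 18 lower than the control, where 16.2% and 15.8% of all genes were. Between 30 and 60 min, 10 rose and 12 fell, where 10.4% and 13.9% of all genes did. By total counts alone 34 rose and 2 fell.

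In the brassinosteroid list, 4 of 10 genes had a checked name and passed the filter, BRI1 among them. The 3 others fell at 30 min and were lower at 60 min too, where 19.6% and 15.8% of all genes were lower. The rest of the list was not tested. D2, a P450 of brassinosteroid synthesis, was at 10.1 ± 3.05 CPM in the wet control, 2.55 ± 0.338 CPM at 30 min and 1.63 ± 0.288 CPM at 60 min (SD, n = 3). It fell by 1.98 ± 0.33 at 30 min and fell by 2.63 ± 0.34 at 60 min on the log2 scale (edgeR adjusted p = 0.00037 and 7.4e-05). D11, another P450 of that synthesis, had log2 fold changes of -2.40 ± 0.46 and -1.68 ± 0.44 (edgeR adjusted p = 0.0011 and 0.012). BZR1, a transcription factor that acts after the receptor, had ones of -2.66 ± 0.65 and -2.01 ± 0.63 (edgeR adjusted p = 0.0059 and 0.028). BRI1 was back at 80.7% of the control at 60 min by its means, while D2, D11 and BZR1 stood at 0.170, 0.326 and 0.255 times theirs. The rule chose BRI1 for a 60 min mean near the control. D11 and BZR1 met its limits in the wet control and at 30 min, so with such a recovery they would have been chosen too. The contrast of BRI1 with D11 and BZR1 was thus fixed by the rule, and nothing is read from it. D2, at 0.260 times the control at 30 min, was outside the 30 min limit. Without 60 min replicate 2 the calls of D11 and BZR1 at 60 min were lost, and that of BZR1 also without 60 min replicate 3 or wet control replicate 3, or with only the 2 compared groups in the fit. In the list of cytokinin response regulators, the pathway of CKX11, 7 genes were tested. On the TMM scale 2 were higher and 1 lower at 30 min, where 19.3% and 19.6% of all genes were. The lower one was at only 0.446 CPM in the wet control.

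In the gibberellin list, 8 of 13 genes could be tested, SLR1 among them. Of the 7 others, 2 were lower at 30 min and none higher, where 19.6% and 19.3% of all genes were. At 60 min 3 were lower and 1 higher than the control, where 15.8% and 16.2% of all genes were. GA20ox2, an oxidase of gibberellin synthesis known as the semidwarf gene, was at 15.8 ± 7.79 CPM in the wet control, 2.41 ± 1.06 CPM at 30 min and 8.34 ± 1.62 CPM at 60 min. It fell by 2.71 ± 0.48 at 30 min (edgeR adjusted p = 0.0007) and was 1.79 ± 0.47 higher at 60 than at 30 min on the log2 scale (edgeR adjusted p = 0.016). At 60 min it stood at 0.532 times the control, under the 0.67 that the rule asks for. KAO, an earlier enzyme of the same route, was at 12.6 ± 3.01, 4.47 ± 0.901 and 2.42 ± 0.970 CPM, lower at both times (edgeR adjusted p = 0.039 and 0.0052). The 30 min call of KAO was lost when any 30 min library or wet control replicate 2 or 3 was left out, and the later rise of GA20ox2 without 30 min replicate 1 or 3.

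Among the listed regulators, 4 chosen after their values were seen had a shallower dip that also ended by 60 min. GH3-5, an enzyme of the GH3 family, was at 79.0 ± 16.5 CPM in the wet control. It was at 34.6 ± 2.16 CPM at 30 min and 96.8 ± 5.14 CPM at 60 min (edgeR adjusted p = 6.4e-05 for 30 min against the control and 3.3e-05 for 60 against 30 min). PRR1, a component of the plant clock, was at 9.26 ± 1.13, 3.75 ± 0.769 and 9.29 ± 0.645 CPM (edgeR adjusted p = 0.00016 and 0.00044). GLK1 was at 270 ± 79.9, 135 ± 19.9 and 330 ± 27.5 CPM (edgeR adjusted p = 0.012 and 0.0056). TIFY6B, a JAZ repressor of jasmonate signalling, was at 78.6 ± 14.2, 46.0 ± 1.24 and 77.03 ± 1.19 CPM (edgeR adjusted p = 0.00082 and 0.0024). On the TMM scale these 4 fell to 0.412 to 0.586 times the control at 30 min, above the limit of 0.25. Scaling by total counts alone moved the median log2 ratio over all genes by -0.88, so this depth depends on the scaling. The 2 comparisons of each gene share the 30 min libraries, and the 4 were chosen by these same values, so their p-values are a description.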

How the data were processed

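The authors deposited whole-number read counts per gene for 15 libraries, not normalized. Per the labels' protocols, stranded mRNA libraries (NEBNext) were built from RNA of an RNeasy extraction. Per the submitters' processing notes, reads went through Trimmomatic, HISAT2 and featureCounts, versions unstated. Neither the build of the genome nor the counting's strand setting is given in the sources used here, so reads of antisense genes may be mixed and those of close paralogs shared.

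Of 24073 genes 1205 had no count, and edgeR 4.0.16 (R 4.3.3) with filterByExpr (minimum count 10, minimum total 15) kept 20462. Counts were fitted with TMM factors and the robust quasi-likelihood model, 1 mean per group over 15 libraries, with Benjamini-Hochberg adjustment over all genes and a threshold of 0.05. The fit was tested on simulated data. The SE is the log2 fold change divided by the square root of F. Replicates were compared before averaging and no group held the same library more than once. Counts carry no molecular identifiers.

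The 42 genes and the gene lists were chosen with earlier results of these data known. No test was made of what the rule used. The text names the 8 genes with the highest control mean, the 8 with the lowest 30 min ratio, those with a checked name, those past the threshold or with the smallest p in drought, those at the limits, and, for the gibberellin and brassinosteroid lists, up to 3 genes past the threshold with the largest change at 30 min. The rule also covers such genes of the other lists, which are not named here except 4 chosen after their values were seen. A name was kept if its symbol in the reference (assembly ASM3414082v1) lay within 1000 kb of the place expected from the locus. Of 166 listed loci, 112 had a checked name in the table and 102 were tested. The check cannot separate tandem neighbours, and for 5 of the 7 named genes it was made after values were seen. Promoter motifs were planned and not analysed here. Alternatives were DESeq2 1.42.0, RLE factors, library totals, a fit of only the compared groups, no filter, a replicate block, other limits and each library left out.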

Additional observations from a re-analysis of the deposited data

How the results depend on the processing

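RLE factors and no filter on low counts left the number of genes chosen at 42. It was 283 by library totals (31 shared with the 42), 21 with 1 CPM added to the means (18 shared) and 27 to 66 with a library left out. With limits tried after seeing the data it was 111 at 33.3% of the control and 18 at 20% at 30 min, and 23 with 60 min between 0.8 and 1.25 times the control. Genes of the 42 past the threshold in mild drought, 2 in the report, were none in edgeR with the 2 compared groups alone, 7 with DESeq2 (1 higher, 6 lower, where 5.35% and 6.28% of all genes were) and 0 to 4 with a library left out. In severe drought, also 2, they were 1 with the 2 groups alone, 17 with DESeq2 (2 higher, 15 lower, where 4.53% and 4.34% of all genes were) and 2 to 6 with a library left out. Severe against mild drought gave 1 with DESeq2 and 0 with any library left out. Listed genes past the threshold at 30 min, 37 in the report, were 67 by library totals and 24 to 37 with a library left out, the lowest without wet control replicate 3. At 60 min, 32, they were 23 to 33. For 60 against 30 min, 22 (10 higher, 12 lower), they were 36 by library totals (34 higher, 2 lower), 35 with the 2 groups alone (17 higher, 18 lower) and 12 to 16 with a library left out.

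Replicate numbers did not pair the drought and wet control libraries: same-numbered libraries had correlated deviations of -0.153 to 0.551 for mild drought, and of -0.449 to 0.192 for severe drought. With the replicate number as a block, 1 of the 42 passed in mild drought (LOC_Os07g04930), 2 in severe drought and 0 between droughts. Between 30 and 60 min the same-numbered correlations were 0.213 to 0.449, and the block gave 22 listed genes, as without it.

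Directions that reversed were all of differences short of the threshold. PRR1 at 60 min against the control went from 0.005 to -0.0046 by RLE factors, -0.12 by library totals, -0.0046 with DESeq2 and -0.077 to 0.099 with a library left out, and TIFY6B to -0.15 to 0.029 with one left out. Between 60 and 30 min, BZR1 was at -0.11 to 1.02 with a library left out (the lowest without 60 min replicate 1) and D2 at 0.11 by library totals.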
